A study of Mus musculus with 4 samples.

Results

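The genes described here are the 6 enzymes that write or oxidise DNA methylation in mouse cells: the maintenance methyltransferase Dnmt1, the de novo methyltransferases Dnmt3a and Dnmt3b, and the dioxygenases Tet1, Tet2 and Tet3. They were taken by symbol from the 32285 genes of the deposited matrices, and all 6 symbols were found. The samples were 4 single-cell libraries of CD45.2+ Kit+ bone marrow cells collected 10 weeks after transplantation, with RNA and 15 antibody tags counted in the same cells (CITE-seq). One library was a control, and the other 3 were labelled as having lost Mll3, Mll4 or both genes (Mll3/4 deleted). Mll3 and Mll4, encoded by Kmt2c and Kmt2d, are the histone H3 lysine methyltransferases that act at enhancers. The Cre driver, the floxed exons, the sex and number of donors and what the 2 hashtag antibodies marked are not given in the sources used here.

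DNA methylation in mammals sits mainly on cytosines of CpG dinucleotides. Dnmt1 copies the pattern onto the new strand behind the replication fork, with Uhrf1 guiding it to half-methylated sites, whereas Dnmt3a and Dnmt3b methylate sites that were bare. The Tet enzymes oxidise the methyl group, and the oxidised base is then diluted by replication or cut out by the glycosylase Tdg. In blood formation, loss of Dnmt3a or Tet2 is known to expand stem cells, and Tet2 and Tet3 are known to act together in B-cell development.

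The start regions of a pair of members are shown, the first because Dnmt1 rose with the cell cycle in the values below. In RefSeq on GRCm38.p6, the window from 250 bases before to 50 bases after the third listed Dnmt1 start lies at chr9:20952574-20952873 on the minus strand, inside the Dnmt1 gene. It holds 2 matches to the core letters bound by E2F factors, the regulators of S phase genes. The searched words were TTTCGCGC and TTTGGCGC on both strands, and the capitals mark the matches.

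Dnmt1, start 3: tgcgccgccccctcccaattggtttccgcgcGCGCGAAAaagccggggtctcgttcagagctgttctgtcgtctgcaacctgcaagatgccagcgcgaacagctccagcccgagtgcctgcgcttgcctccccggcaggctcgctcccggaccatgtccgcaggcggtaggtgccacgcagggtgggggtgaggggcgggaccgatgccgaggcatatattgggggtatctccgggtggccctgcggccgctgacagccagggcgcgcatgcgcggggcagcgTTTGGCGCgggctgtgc

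Of 32851 promoter windows of the same length, 0.813% held either word. Neither word was found in the windows of the other 2 Dnmt1 starts, of Dnmt3a, Dnmt3b, Tet1, Tet2 or Tet3. The window of the only listed Dnmt3b start lies at chr2:153649199-153649498 on the plus strand and is shown for contrast. Its 30 CpG dinucleotides compare with 33 in the Dnmt1 window, and a promoter window held a median of 7.

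Dnmt3b, start 1: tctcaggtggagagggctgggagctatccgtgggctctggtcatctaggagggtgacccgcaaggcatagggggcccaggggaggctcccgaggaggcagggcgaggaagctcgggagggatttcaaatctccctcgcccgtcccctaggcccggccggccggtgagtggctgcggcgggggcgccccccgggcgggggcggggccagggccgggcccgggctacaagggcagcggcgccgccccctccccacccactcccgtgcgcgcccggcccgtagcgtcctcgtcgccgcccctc

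A match of letters is a description of the window and not a binding site.

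After filtering and doublet removal, 7146 control, 5860 Mll3-labelled, 5350 Mll4-labelled and 6917 Mll3/4-labelled cells remained, with median depths of 15754, 16963.5, 5142 and 9965 unique molecules (UMIs) per cell. The targeted genes did not all follow the labels. Levels are given as CPM, the UMIs of a gene divided by all UMIs of the same cells and scaled to 1e6. Kmt2c was at 47.9, 27.2, 59.2 and 34.8 CPM in the control, Mll3-, Mll4- and Mll3/4-labelled libraries. Kmt2d was at 25.8, 21.6, 25.0 and 24.7 CPM in the same order, so it was not visibly lower where Mll4 is labelled as deleted. The reads are 3′ tags that may lie outside the deleted part, so they do not check the deletion, and each library is called by its label below. Xist was at 0.519 CPM in the Mll4-labelled library and between 955 and 1839 CPM in the other 3, so what sets Xist and the Mll4 label cannot be told apart. Kit, the receptor used for the sort, was at 105, 108, 167 and 189.8 CPM, and in control neutrophil-like cells it was at 33.4 CPM. Pairs of libraries shared 9 to 24 cell barcodes.

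With 1 library per group there is no replicate and no test. UMIs were summed over the cells of a class before the CPM was taken, and the intervals given are 95% intervals for counting error only. A member was called higher or lower when its ratio was past 1.5-fold and either library had at least 20 counts. In this main setting, each count of called members is read beside the share of all genes called in the same way. Cells were clustered without the members, and a class is named "-like" from marker genes. The classes with at least 50 control cells were HSC/MPP-like (stem and multipotent progenitor), granulocyte progenitor-like, neutrophil-like, monocyte/macrophage progenitor-like, erythroid progenitor-like, megakaryocyte-like, basophil/mast-like, B-cell progenitor-like and T/NK/innate lymphoid-like cells. The Mll3/4-labelled library held 6832 B-cell progenitor-like cells among its 6917, so it could be compared by class in these cells alone.

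Dnmt1 was detected in every class of the control library within a narrow range. It was highest in megakaryocyte-like cells at 264 CPM (256 to 274) and B-cell progenitor-like cells at 247 CPM (229.7 to 265), whose intervals overlapped. HSC/MPP-like cells followed at 211 CPM (205 to 218) and erythroid progenitor-like cells at 192 CPM (188 to 195). Granulocyte and monocyte/macrophage progenitor-like cells were both at 179 CPM. Neutrophil-like, basophil/mast-like and T/NK/innate lymphoid-like cells were lowest, at 151, 136 and 133 CPM, and their intervals overlapped.

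**Figure D1:**
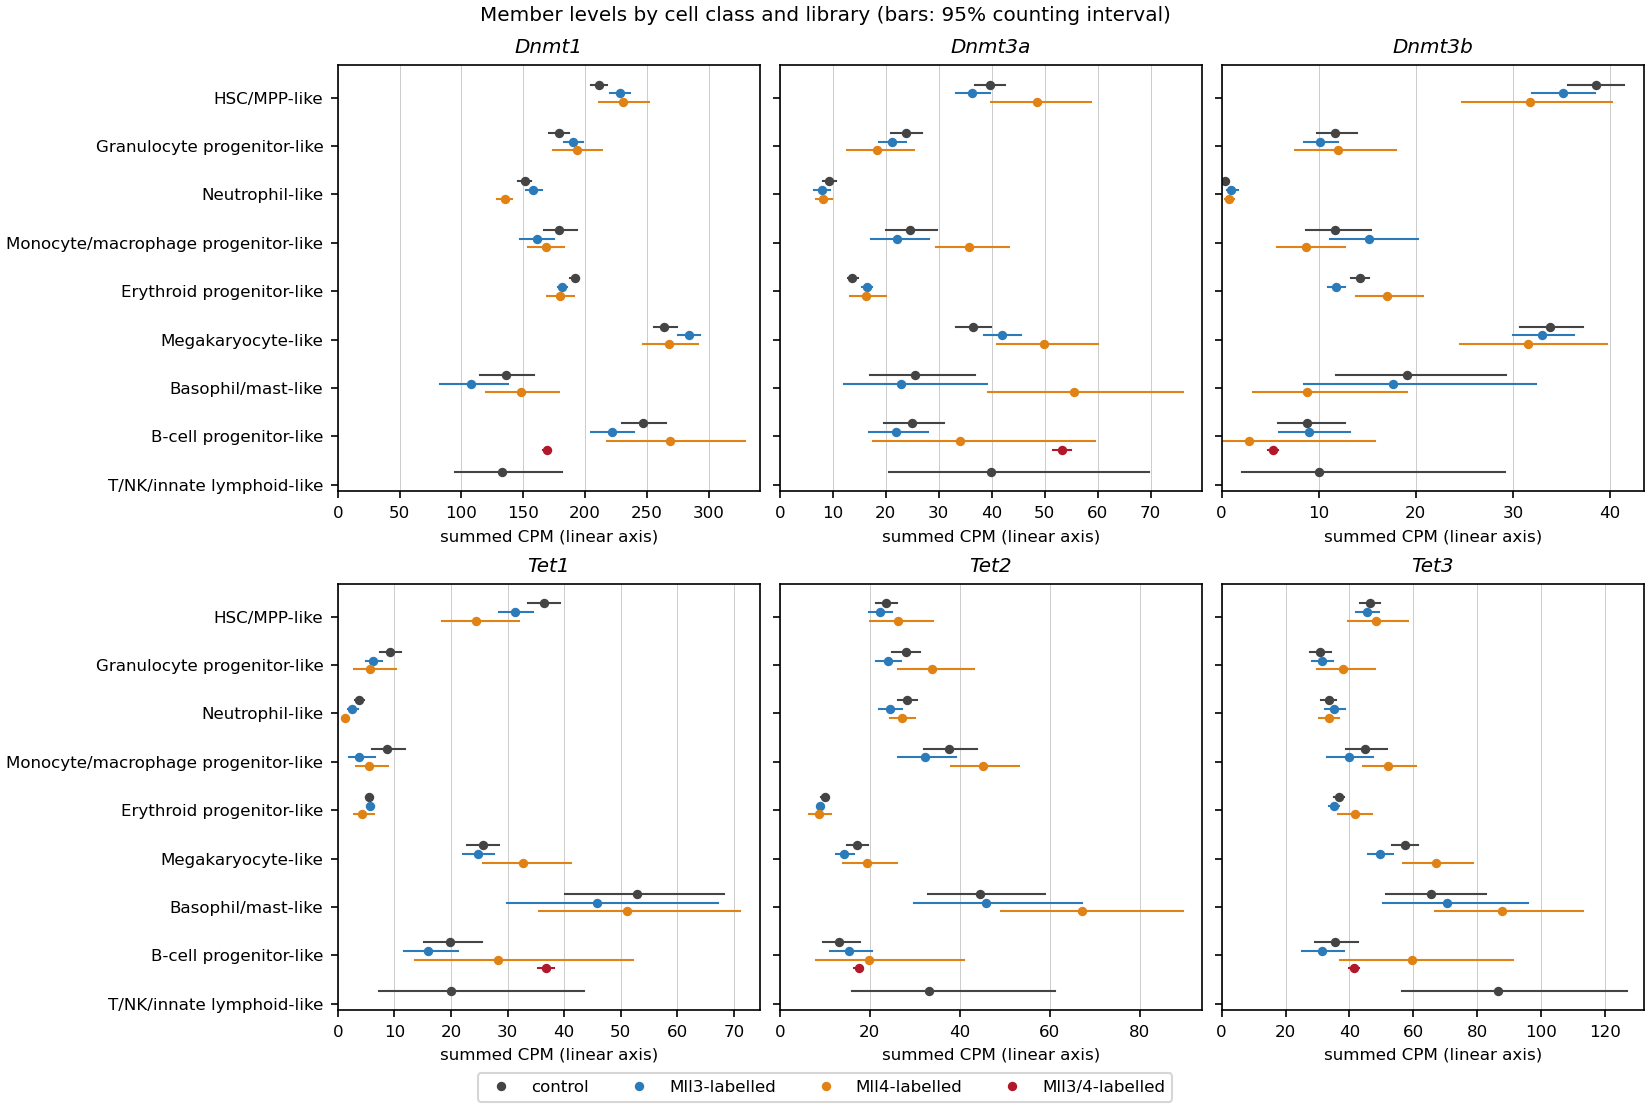
Summed CPM of each member (linear x axis) in each cell class (y axis), with 1 point per library and a line for the 95% counting interval; classes with under 50 cells in a library have no point. In control neutrophil-like cells Dnmt3b was near 0 and Tet1 was at 3.71 CPM, and the Mll3/4-labelled point appears in B-cell progenitor-like cells alone.

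The de novo methyltransferases separated the classes more sharply. Dnmt3b was at 38.5 CPM (35.7 to 41.4) in control HSC/MPP-like cells and 33.8 CPM (30.7 to 37.2) in megakaryocyte-like cells. Basophil/mast-like cells followed at 19.1 CPM (11.8 to 29.3). Erythroid, granulocyte and monocyte/macrophage progenitor-like cells lay between 11.7 and 14.2 CPM, and B-cell progenitor-like cells at 8.81 CPM (5.85 to 12.7). Neutrophil-like cells were lowest at 0.334 CPM (0.144 to 0.658), where the 1782 cells together held 8 Dnmt3b UMIs. In neutrophil-like cells of the Mll3- and Mll4-labelled libraries it was at 0.987 and 0.712 CPM, from 14 and 10 UMIs. The log2 ratios to the control were 1.56 (0.21 to 3.02) and 1.09 (-0.40 to 2.64), and with under 20 counts neither was called. Free RNA was not removed from the counts, so such values can include molecules from other cells.

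Dnmt3a was at 39.6 CPM (36.8 to 42.6) in HSC/MPP-like and 36.4 CPM (33.2 to 39.9) in megakaryocyte-like control cells, and at 39.9 CPM with a wide interval (20.6 to 69.7) in T/NK/innate lymphoid-like cells. Basophil/mast-like, B-cell progenitor-like, monocyte/macrophage progenitor-like and granulocyte progenitor-like cells formed a middle group between 23.8 and 25.5 CPM with overlapping intervals. Erythroid progenitor-like cells at 13.7 CPM and neutrophil-like cells at 9.30 CPM were below all of these. Unlike Dnmt3b, Dnmt3a therefore stayed measurable in neutrophil-like cells.

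Among the dioxygenases, Tet1 was high in few classes. Control basophil/mast-like cells had 52.9 CPM (40.1 to 68.3), HSC/MPP-like cells 36.5 CPM (33.7 to 39.3) and megakaryocyte-like cells 25.6 CPM (22.9 to 28.5). B-cell progenitor-like cells had 19.8 CPM. Granulocyte progenitor-like, monocyte/macrophage progenitor-like, erythroid progenitor-like and neutrophil-like cells had 9.17, 8.66, 5.54 and 3.71 CPM. HSC/MPP-like and megakaryocyte-like cells were therefore high for both Tet1 and Dnmt3b. Basophil/mast-like cells were above both classes for Tet1 and below both for Dnmt3b.

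Tet2 followed another order. It was highest in control basophil/mast-like cells at 44.6 CPM (33.0 to 59.0) and monocyte/macrophage progenitor-like cells at 37.7 CPM (32.1 to 43.9). Neutrophil-like cells, at 28.4 CPM, and granulocyte progenitor-like cells, at 28.0 CPM, were above HSC/MPP-like cells at 23.7 CPM (21.5 to 26.0), whose interval overlapped that of the granulocyte progenitor-like cells (24.9 to 31.3) but not that of the neutrophil-like cells (26.3 to 30.6). B-cell progenitor-like and erythroid progenitor-like cells were lowest at 13.2 and 10.0 CPM. Tet3 ranged from 30.7 CPM in granulocyte progenitor-like cells to 57.3 CPM in megakaryocyte-like and 65.6 CPM in basophil/mast-like cells, and was at 86.5 CPM (56.5 to 127) in the 50 T/NK/innate lymphoid-like cells.

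The genes most like each member were found by Pearson's r of log2(CPM + 1) over 27 class and library units, among 9724 genes. These units share libraries, so r is a description. For Dnmt1 the 3 nearest were the replication genes Pola1 (r = 0.89), Lig1 (0.87) and Pole (0.86), which encode DNA polymerase subunits and the replicative ligase. For Dnmt3a they were Rfx5 (0.93), Laptm4a (0.91) and H2-K1 (0.91), and for Dnmt3b they were Eef2kmt (0.92), Akr1e1 (0.91) and Dcun1d1 (0.90). Tet1 was nearest to Plekha5 (0.94), Arhgap18 (0.91) and Magi2 (0.91), and Tet2 to Man2b1 (0.91), Glud1 (0.90) and Rin3 (0.89). For Tet3 they were Med15 (0.93), Inpp4b (0.89) and 2310015A10Rik (0.88). Within the family, the highest r was between Dnmt3a and Tet1 (0.78), and the lowest was between Dnmt1 and Tet2 (-0.50).

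Members differed in how their levels went with the cell cycle within a class. Cells of a class with at least 2000 UMIs were each reduced to 2000 UMIs, and cells under that depth were left out of the bins. The reduced cells were ordered by the share of their UMIs that came from lists of 20 S phase and 20 G2/M genes. They were cut at the quartiles over all libraries into 4 bins. Tied cells were kept in 1 bin, so that the bins differ in size. In control HSC/MPP-like cells, Dnmt1 rose from 94.6 CPM in the least-cycling bin to 273 CPM in the most-cycling bin, a log2 ratio of 1.53 (1.36 to 1.70). Tet1 went the other way, from 48.1 to 26.6 CPM, a log2 ratio of -0.86 (-1.19 to -0.53). Dnmt3a was at 44.0 and 33.1 CPM (-0.41, interval -0.73 to -0.09), and the interval of Dnmt3b, at 38.7 and 36.8 CPM, included 0. Mll3-labelled HSC/MPP-like cells had nearly the same ratios, 1.72 for Dnmt1, -0.81 for Tet1 and -0.58 for Dnmt3a. In control erythroid progenitor-like cells, Dnmt1 was at 188 and 205 CPM, so the gradient was small there. It was also small in control megakaryocyte-like (0.38, interval 0.24 to 0.52) and neutrophil-like cells (0.29, interval 0.13 to 0.46). The Tet1 interval included 0 in control erythroid progenitor-like, megakaryocyte-like and neutrophil-like cells.

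Surface protein gave another split of the HSC/MPP-like cells. Among control cells, Dnmt1 was at 169 CPM (153 to 185) in CD150+ CD48- cells, the phenotype of stem cells, and at 137 CPM (119 to 158) in CD150- CD48- cells. In CD48+ cells it was at 237 CPM (212 to 263) with CD150 and 225 CPM (217 to 233) without it. The S phase list summed to 1519 and 1403 CPM in the CD48- groups and to 2323 and 2352 CPM in the CD48+ groups. The cut-offs, 13.8 counts for CD150 and 377 for CD48, were set on control cells and applied to every library. The CD150- CD48- group held 140 of 1244 control and 208 of 898 Mll3-labelled cells. Whether the gates match between libraries was not tested. With these gates the split was narrower in the Mll3-labelled library. The CD150+ CD48+ group held under 50 cells in the Mll3- and Mll4-labelled libraries and is not given. In Mll3-labelled cells Dnmt1 was at 204 CPM (187 to 222) in CD150+ CD48-, 195 CPM (178 to 214) in CD150- CD48- and 238 CPM (228 to 249.6) in CD150- CD48+ cells. In Mll4-labelled cells it was at 228 CPM (171 to 298), 185 CPM (139.8 to 240.4) and 232 CPM (209 to 258) in the same order, with overlapping intervals. The CD48- intervals there were too wide to compare the split with that of the control. Among control cells Dnmt3a, between 37.1 and 48.2 CPM, and Dnmt3b, between 34.3 and 40.6 CPM, had overlapping intervals in all 4 groups.

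Each labelled library was set against the control within a class. These comparisons share the 1 control library. In the Mll3-labelled library no member was past 1.5-fold over all cells, where 12.4% of all genes were, nor in HSC/MPP-like cells, where 8.19% were, nor in B-cell progenitor-like cells, where 12.2% were. In Mll3-labelled HSC/MPP-like cells the values were 228 against 211 CPM for Dnmt1, 36.3 against 39.6 for Dnmt3a, 35.1 against 38.5 for Dnmt3b, 31.4 against 36.5 for Tet1, 22.4 against 23.7 for Tet2 and 45.4 against 46.4 for Tet3. Of the other Mll3 comparisons, the 1 call was Tet1 in monocyte/macrophage progenitor-like cells, at 3.81 against 8.66 CPM (log2 ratio -1.18, interval -2.26 to -0.21), from 12 and 37 UMIs and against 8.46% of all genes called. In granulocyte progenitor-like, neutrophil-like, erythroid progenitor-like, megakaryocyte-like and basophil/mast-like cells no member was called, against 7.12%, 8.28%, 10.3%, 9.60% and 15.8% of all genes, and Dnmt3b had too few counts in neutrophil-like cells.

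The Mll4-labelled library had lower Dnmt3b and Tet1 over all cells. Dnmt3b was at 11.2 against 17.4 CPM (log2 ratio -0.63, interval -0.79 to -0.48) and Tet1 at 8.57 against 12.9 CPM (-0.59, interval -0.78 to -0.41). These 2 of 6 members compare with 40.1% of all genes past the threshold, so the share is no higher than the background. The mix of cells also differed: 2690 of 5350 Mll4-labelled cells were neutrophil-like, against 1782 of 7146 control cells. In control neutrophil-like cells Dnmt3b was at 0.334 and Tet1 at 3.71 CPM. The part of the cell mix in these ratios was not tested. Both calls ended among cells carrying the first hashtag alone, at -0.38 for Dnmt3b and -0.49 for Tet1. The Tet1 call also ended among the less-cycling cells (-0.43), where Tet2, inside the threshold over all cells (0.49), was past it (0.66).

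Within HSC/MPP-like cells of the Mll4-labelled library, no member was called, where 30.5% of all genes were. Dnmt3b was at 31.8 against 38.5 CPM with an interval that included 0 (log2 ratio -0.27, interval -0.65 to 0.08). Tet1 was at 24.5 against 36.5 CPM (-0.57, interval -1.0 to -0.17), just inside the threshold, and was past it with scaling by trimmed means (-0.79). The all-gene median in this comparison was 0.17, and both scalings tried lowered every value in it by 0.22. Across the class comparisons of the Mll4-labelled library, medians of all genes lay between 0.07 and 0.25. The Mll4-labelled cells had a median of 5650 UMIs against 13276.5, and their neutrophil marker list summed to 3186 against 1234 CPM (8 of 9 genes with counts, Mmp8 at 0, against 9 of 9). Their cycling lists were also higher, with the S phase list at 3055 against 2159 CPM and the G2/M list at 3354 against 2141 CPM. Of these cells 161 were in the most-cycling and 60 in the least-cycling bin, against 228 and 382 control cells, and Tet1 was lower in the most-cycling control cells. The part of depth, marker RNA or cycling in the ratios was not tested.

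Tet1 was also lower in the later myeloid classes of the Mll4-labelled library. In neutrophil-like cells it was at 1.21 against 3.71 CPM (log2 ratio -1.62, interval -2.46 to -0.86), where 27.2% of all genes were called, and this stayed past 1.5-fold in 13 of 13 alternatives. The Mll4-labelled neutrophil-like cells lay in clusters 16 and 19 and the control ones in clusters 6 and 8, so the class was held by different clusters. The G2/M list summed to 7102 and 692 CPM in clusters 16 and 19 and to 6139.8 and 5201 CPM in control clusters 6 and 8. In granulocyte progenitor-like cells Tet1 was at 5.74 against 9.17 CPM (-0.68, interval -1.72 to 0.22; 37.9% called), and in monocyte/macrophage progenitor-like cells at 5.49 against 8.66 CPM (-0.66, interval -1.58 to 0.21; 34.7% called). Both intervals included 0, and the calls held in 10 of 13 and 6 of 12 alternatives. The Mll4-labelled levels of Tet1 in these classes rest on 17, 11 and 17 UMIs in the order given. The Mll3-labelled library, set against the same control, had the same sign there. Its Tet1 log2 ratios were -0.55, -0.55 and -1.18, the last alone called, so the direction was not particular to the Mll4 label. In Mll4-labelled megakaryocyte-like cells the Tet1 ratio had the other sign, at 32.8 against 25.6 CPM (0.36, interval -0.03 to 0.73), so lower Tet1 was not seen in every class. No member was called in megakaryocyte-like (29.2% of all genes) or erythroid progenitor-like cells (29.6%). Basophil/mast-like cells differed at 3 members, against 40.0% of all genes: Dnmt3a was at 55.5 against 25.5 CPM (1.12, interval 0.38 to 1.88), Dnmt3b at 8.77 against 19.1 CPM (-1.13, interval -2.72 to 0.23) and Tet2 at 67.2 against 44.6 CPM (0.59, interval -0.02 to 1.20). The Tet2 call held in 6 of 12 alternatives and was at 0.32 with median-of-ratios scaling. Their median depth was 2657 against 9255 UMIs, and Kit was at 1653 against 323 CPM.

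**Figure D2:**
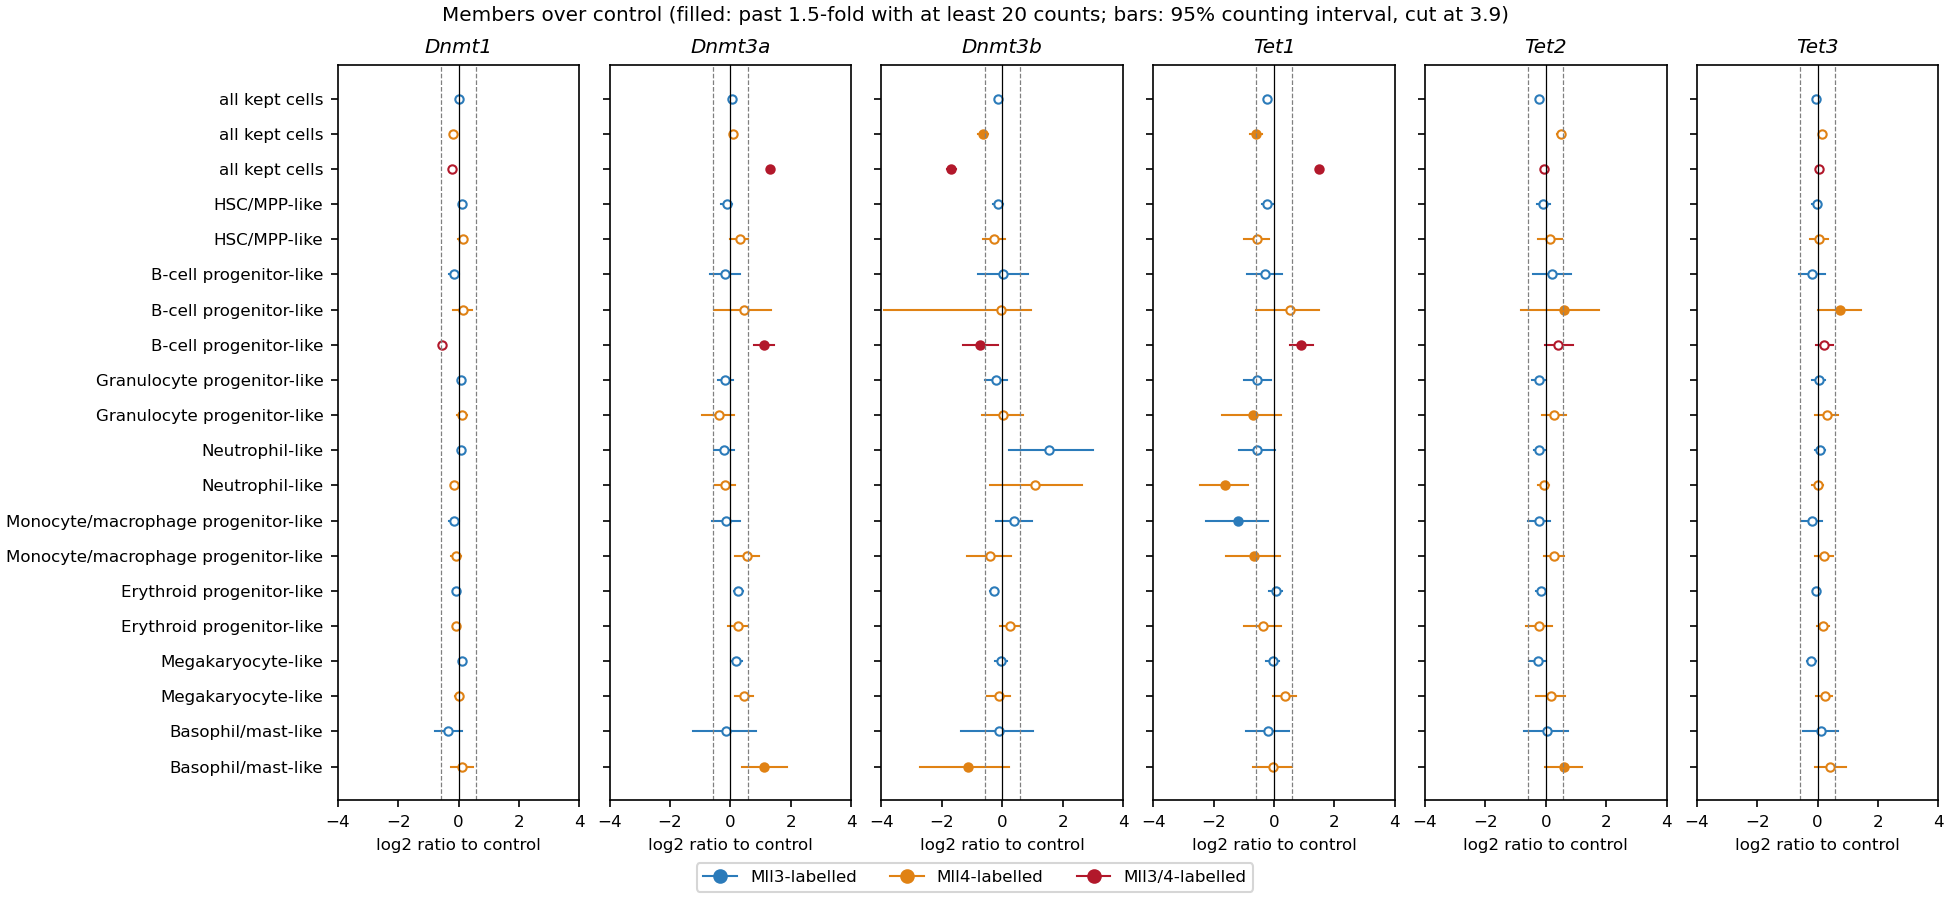
Log2 ratio of each member to the control (x axis) by population (y axis) and library (colour), with 95% counting intervals cut at 3.9; filled points were past 1.5-fold (dashed lines) with at least 20 counts. The Mll3/4-labelled library had higher Dnmt3a and Tet1 and lower Dnmt3b, both over all cells and in B-cell progenitor-like cells.

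The Mll3/4-labelled library stood apart over all cells, with Dnmt3a and Tet1 higher and Dnmt3b lower. Dnmt3a was at 21, 21.7, 22.3 and 52.5 CPM in the control, Mll3-, Mll4- and Mll3/4-labelled libraries, a log2 ratio of 1.32 (1.26 to 1.39) for the last over the control. Tet1 was at 36.2 against 12.9 CPM (1.49, interval 1.40 to 1.57) and Dnmt3b at 5.41 against 17.4 CPM (-1.69, interval -1.84 to -1.54). The 3 of 6 members called compare with 56.9% of all genes. In this library nearly all cells were B-cell progenitor-like, so a difference over all cells and a difference in cell types cannot be told apart. In these sums over all cells, fewer cells of a type also cannot be separated from less RNA per cell. Levels within the class are given next.

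Within B-cell progenitor-like cells the same 3 members were called, by smaller ratios, against 41.1% of all genes (17.1% higher and 23.9% lower). Dnmt3a was at 53.2 CPM, against 24.9 CPM (19.7 to 31.0) in control cells (log2 ratio 1.10, interval 0.78 to 1.44). Tet1 was at 36.8 against 19.8 CPM (0.89, interval 0.53 to 1.28), and Dnmt3b at 5.29 against 8.81 CPM (-0.73, interval -1.29 to -0.13), from 28 control UMIs. Dnmt1 was at 169 against 247 CPM (-0.55, interval -0.65 to -0.44), inside the threshold, and the S phase list summed to 1990.2 against 3075 CPM. Tet2 at 17.6 against 13.2 CPM and Tet3 at 41.4 against 35.6 CPM were also inside it. With each cell of at least 2000 UMIs thinned to that depth, Dnmt3a was inside the threshold (0.50), Tet1 past it (0.67) and Dnmt3b further from 0 (-1.54). The Dnmt3b call held in 10 of 13 alternatives and ended in the less-cycling cells (-0.41), with the first hashtag alone (-0.49) and with the mean of per-cell shares (-0.54). Over the Mll3-labelled library, at 21.9 CPM for Dnmt3a, 16 for Tet1 and 9.03 for Dnmt3b, the log2 ratios were 1.28, 1.20 and -0.77 (43.5% of all genes called).

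The cells compared were not the same kind in each library. Control and Mll3-labelled B-cell progenitor-like cells lay in cluster 0, low in the G2/M list (G2/M-low), and cluster 15, high in it (G2/M-high). Those of the Mll3/4-labelled library lay in clusters 22 and 23, G2/M-low, and 24 and 25, G2/M-high. The S phase list did not always follow these names, so G2/M-low clusters can hold S phase cells. It summed to 1593 and 4046 CPM in control clusters 0 and 15. In Mll3-labelled cluster 0 it was at 2537 CPM, and in cluster 24 at 752 CPM. The neutrophil marker list summed to 2432, 1793, 6017 and 81.3 CPM in the control, Mll3-, Mll4- and Mll3/4-labelled cells (8 of 9 genes with counts in the first 3, Mmp8 at 0, and 9 of 9 in the last), and the granulocyte progenitor list to 806, 962, 868 and 47.4 CPM (7 of 7 genes in each). The B-cell progenitor list summed to 14830.4, 12603, 9769.6 and 12582 CPM, with 10 of 10 genes in each. The part of these differences in the members' ratios was not tested.

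Split by cycling, the Dnmt3a and Tet1 ratios to the control were small in the least-cycling cells. In that bin, Dnmt3a was at 42.4 CPM (28.4 to 60.8) in 183 control cells, 34.7 CPM (17.9 to 60.6) in 89 Mll3-labelled cells and 53.9 CPM (50.9 to 57.1) in 2445 Mll3/4-labelled cells. The log2 ratio of the last to the control was 0.35 with an interval that included 0 (-0.18 to 0.93), and that to the Mll3-labelled cells was 0.64 (-0.17 to 1.59), past the threshold on 12 UMIs. Tet1 was at 39.4, 34.7 and 41.3 CPM, a log2 ratio to the control of 0.07 (-0.48 to 0.68). Dnmt1, at 61.4 against 39.4 CPM (0.64, with the whole interval above 0), was the 1 member called over the control, against 48.9% of all genes. Over the Mll3-labelled cells 52.0% of all genes were called. Dnmt1 (13 UMIs in those cells) was past the threshold there besides Dnmt3a, with intervals that included 0. Dnmt3b, at 4.31 against 5.78 CPM, was called lower (-1.01) only because its 2 Mll3-labelled UMIs were set to 3 in the ratio. The Dnmt3b interval also included 0.

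In the most-cycling bin the Mll3/4-labelled cells stood above the control for Dnmt3a and Tet1. Dnmt3a was at 15 CPM (9.94 to 21.6) in 156 control cells, 18.1 CPM (12.3 to 25.7) in 152 Mll3-labelled cells and 46.0 CPM (43.2 to 48.8) in 1475 Mll3/4-labelled cells. The log2 ratio of the last was 1.62 (1.08 to 2.22) over the control and 1.34 (0.83 to 1.91) over the Mll3-labelled cells. Tet1 was at 12.8, 11.7 and 33.6 CPM, with log2 ratios of 1.39 (0.80 to 2.04) and 1.52 (0.88 to 2.24). Tet2, at 14.4 against 8.55 CPM (0.75, interval 0.03 to 1.58), was past the threshold over the control alone. Dnmt3b was called lower over both, at -1.02 (-1.69 to -0.28) and -0.93 (-1.65 to -0.13). Of all genes, 34.7% were past it over the control and 37.3% over the Mll3-labelled library. The G2/M list summed to 9009, 8893 and 10701 CPM in the most-cycling control, Mll3- and Mll3/4-labelled cells, and the S phase list to 4196, 3702 and 2693 CPM.

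The most-cycling bin also held 66 Mll4-labelled cells, too few for precise levels. Tet1 was at 33.6 CPM (14.5 to 66.2) in them from 8 UMIs, and Dnmt3a at 29.4 CPM (11.8 to 60.6) from 7 UMIs. Both intervals included the Mll3/4-labelled levels and also overlapped the control intervals, so a difference from either was not detectable at this depth.

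Put as a slope within a library, the most- over the least-cycling bin gave a log2 ratio of -1.50 (-2.30 to -0.70) for Dnmt3a in control cells, against -0.23 (-0.35 to -0.11) with both genes labelled as deleted. For Tet1 it was -1.62 (-2.48 to -0.77) and -0.30 (-0.44 to -0.16). These counting intervals did not overlap, but each rests on 1 library and the difference between the slopes was not tested. The Mll3-labelled slopes were -0.94 (-1.94 to 0.16) for Dnmt3a and -1.57 (-2.67 to -0.40) for Tet1. Dnmt1 rose with cycling in all 3, from 39.4 to 347 CPM, 37.6 to 282 CPM and 61.4 to 252 CPM. Tet2 had slopes of -1.36 (-2.47 to -0.24) in the control and -0.55 (-0.76 to -0.35) in the Mll3/4-labelled library, whose intervals overlapped.

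**Figure D3:**
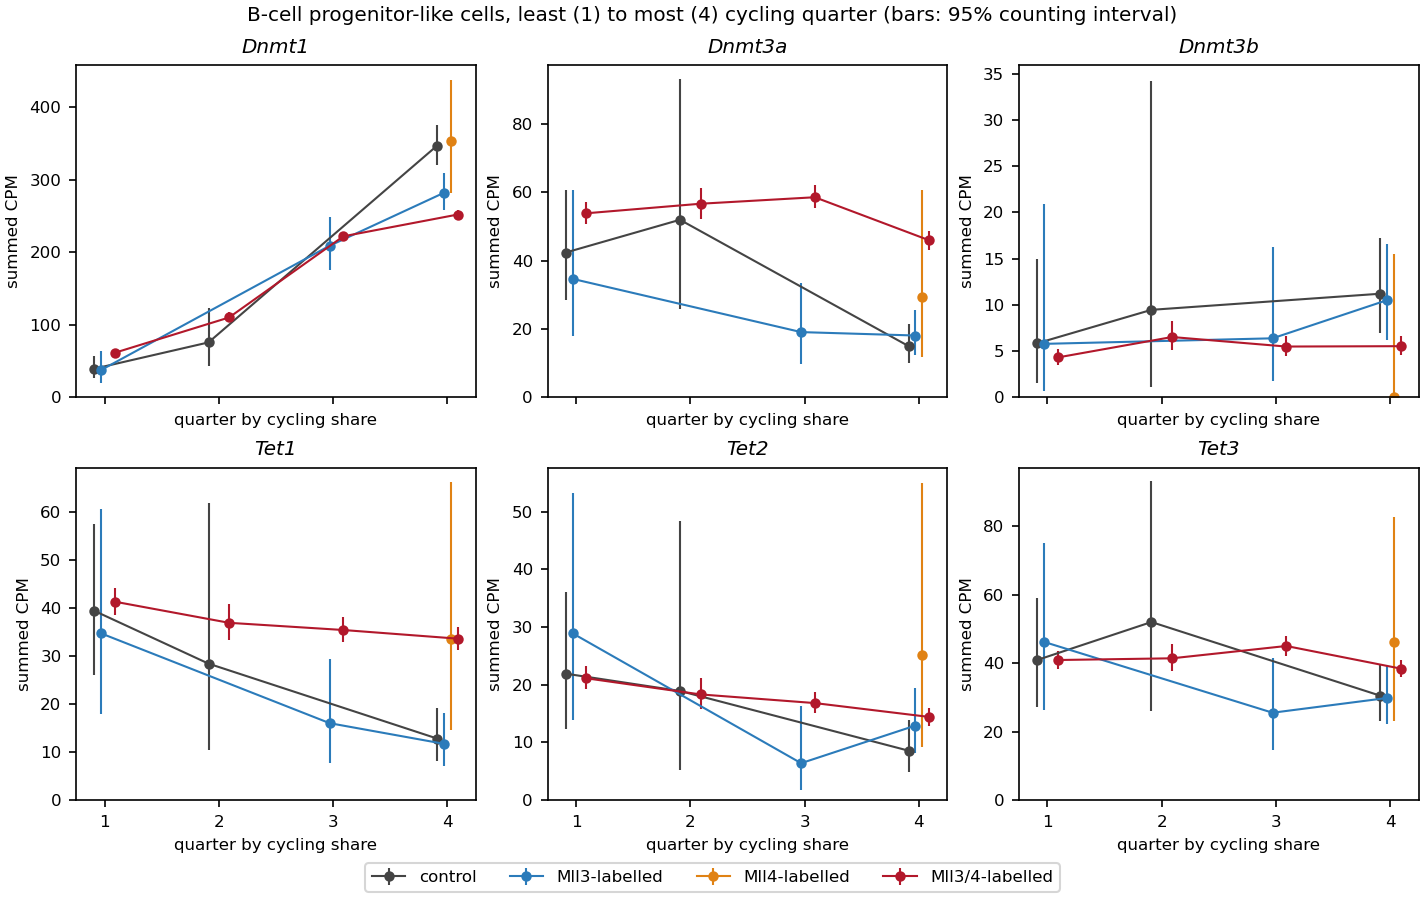
Summed CPM of each member (y axis) in B-cell progenitor-like cells by bin of the cycling share (x axis, 1 least to 4 most cycling), 1 line per library with 95% counting intervals; bins with under 50 cells of a library have no point. Dnmt3a and Tet1 were lower in bin 4 than in bin 1 in the control and Mll3-labelled libraries, and at 46.0 and 33.6 CPM in bin 4 of the Mll3/4-labelled library, while Dnmt1 was higher in bin 4 in these 3.

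The clusters gave another split of the same cells, which is not independent of the cycling share. Apart from members and pathway genes, S phase and G2/M genes could enter the clustering. The names G2/M-low and G2/M-high also come from a list used for that share. In the control, Dnmt3a was at 39.8 CPM in G2/M-low cluster 0 and 14.6 CPM in G2/M-high cluster 15, and Tet1 at 32.6 and 10.9 CPM. In the Mll3/4-labelled library, Dnmt3a was at 58.3 and 56.7 CPM in G2/M-low clusters 22 and 23 and at 42.7 and 44.9 CPM in G2/M-high clusters 24 and 25. Tet1 was at 47.7 and 33.4 CPM in the former and 50 and 30.5 CPM in the latter, so G2/M-high cluster 24 was not below the G2/M-low clusters. Clusters 24 and 25 differed in Dnmt1, at 69.1 and 269 CPM, and in the S phase list, at 752 and 2806 CPM, with similar G2/M sums. The cycling share also moved with the B-cell progenitor list, which summed to 24876 CPM in the least- and 10689 CPM in the most-cycling bin of the control and to 14084 and 11077 CPM with both genes labelled as deleted. Its part in the slopes was not tested.

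Dnmt3b was low in B-cell progenitor-like cells throughout. In the most-cycling bin it was at 11.2 CPM (6.95 to 17.2), 10.5 CPM (6.24 to 16.6) and 5.53 CPM (4.61 to 6.59) in control, Mll3- and Mll3/4-labelled cells, from 21, 18 and 126 UMIs. In the least-cycling bin the control held 4 Dnmt3b UMIs, too few to compare. The Mll4-labelled library held 141 B-cell progenitor-like cells, of which 65 were in G2/M-high cluster 15. Its calls of Tet2 (0.59, interval -0.81 to 1.76) and Tet3 (0.74, interval -0.0021 to 1.43), against 36.0% of all genes, had intervals that included 0. The Tet2 call held in 2 of 12 alternatives and the Tet3 call in 9 of 12, and both ended with either other scaling.

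The 2 hashtags split each library, although the labels do not tie them to animals. In Mll3/4-labelled B-cell progenitor-like cells, Dnmt3a was at 52.3 and 53.5 CPM and Tet1 at 36.6 and 36.7 CPM in the first and second hashtag subsets. In the control, Dnmt3a was at 23.3 and 25.6 CPM, but Tet1 was at 13.1 CPM (7.78 to 20.7) and 25.0 CPM (18.2 to 33.5). The control subsets thus differed more for Tet1 than for Dnmt3a, and the Tet1 log2 ratio was 1.48 with the first hashtag alone and 0.55, inside the threshold, with the second.

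Of 29 further genes of the pathway in 6 lists, 27 had enough counts over all cells, and 7 were higher and 5 lower in the Mll3/4-labelled library (28.2% and 28.8% of all genes). Among maintenance partners, Uhrf1, the Dnmt1 guide, was at 55.4 against 88.6 CPM (log2 ratio -0.68) and its relative Uhrf2 at 109.8 against 59.5 CPM (0.88). Among de novo partners, Qser1 was at 66.9 against 26.0 CPM (1.36), and Dnmt3l, the catalytically inactive cofactor, had 1 UMI against 55. Of the Tet partners, Ogt (1.05) and Cxxc5 (1.95) were higher and Idh1 (-1.29) lower. The glycosylase Neil1 was at 19.8 against 2.30 CPM (3.11). Of 6 methyl-CpG readers, Zbtb33 (0.82) and Zbtb4 (1.33) were higher, and of 3 genes of methyl donor supply, Mat2a (-0.59) and Ahcy (-1.49) were lower. The median of the 27 log2 ratios was 0.02, against -0.02 for all genes.

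**Figure D4:**
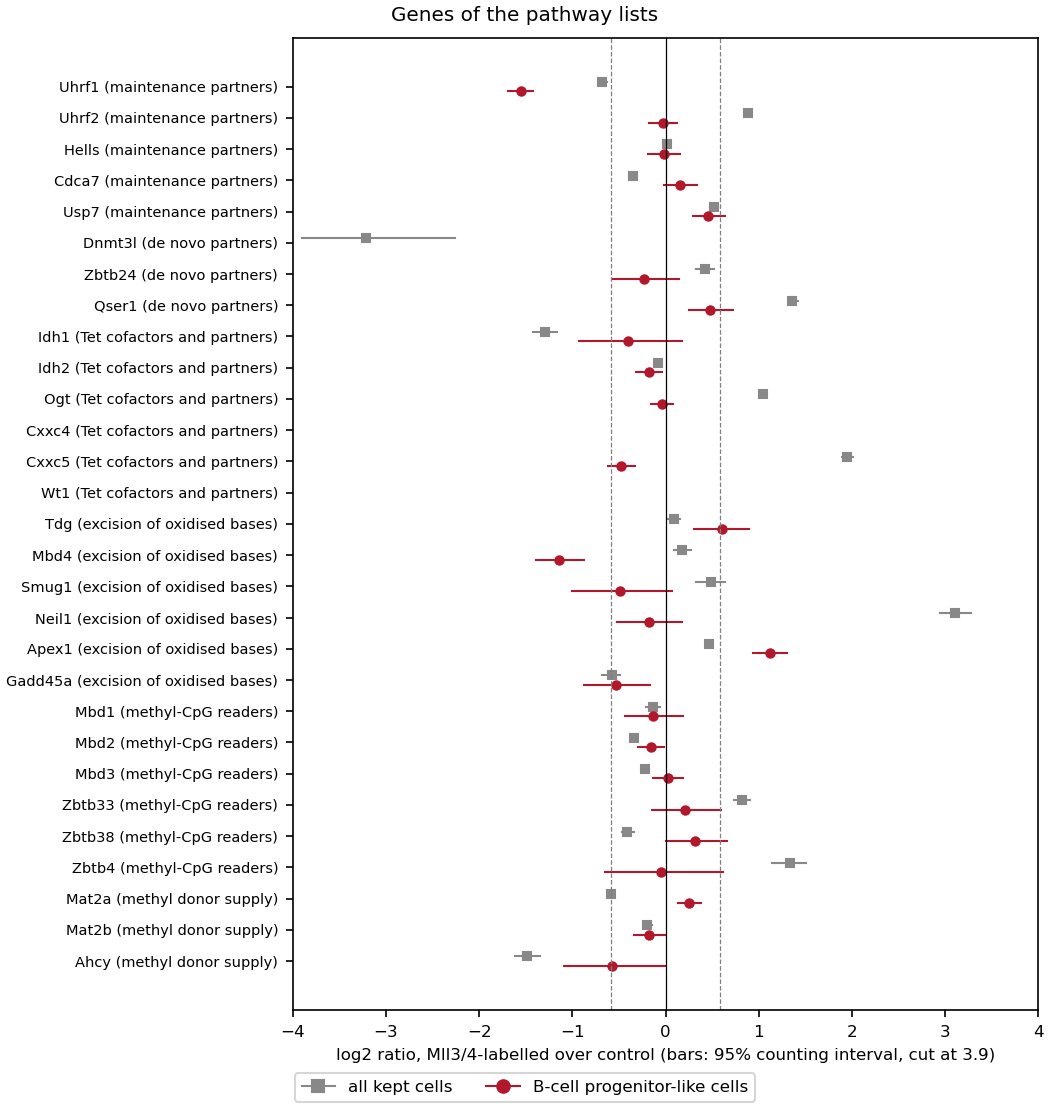
Log2 ratio of the Mll3/4-labelled library over the control (x axis) for the 29 genes of the pathway lists (y axis), over all cells (squares) and in B-cell progenitor-like cells (circles), with 95% counting intervals cut at 3.9; genes under the count minimum have no point. Within the class, Uhrf1 and Mbd4 were lower and Tdg and Apex1 higher than 1.5-fold (dashed lines).

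Most of these differences were not past the threshold inside B-cell progenitor-like cells, where 2 of 26 genes were higher and 2 lower, against 17.1% and 23.9% of all genes. Uhrf1 was at 55.2 against 162 CPM (log2 ratio -1.55, interval -1.69 to -1.42), beside the lower S phase list given above. Mbd4, a thymine glycosylase, was at 19.3 against 42.5 CPM (-1.14), Tdg at 46.6 against 30.8 CPM (0.60) and the endonuclease Apex1 at 177 against 81.2 CPM (1.12). Neil1, at 20.3 against 23.0 CPM, Cxxc5, at 90.1 against 126 CPM, and Ogt, at 180.2 against 185 CPM, were not called. The median of the 26 was -0.09, against -0.08 for all genes.

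In Mll4-labelled HSC/MPP-like cells, 7 of 26 pathway genes were higher and 0 lower, against 20.6% and 9.88% of all genes. They were the maintenance partners Hells (0.83) and Cdca7 (0.67), the cofactor source Idh1 (1.01), Tdg (1.0), the readers Mbd1 (0.67) and Mbd2 (0.67), and Ahcy (1.04). With either other scaling, which lowered every value there by 0.22, Cdca7, Mbd1 and Mbd2 would be inside the threshold. The part of the higher S phase and G2/M lists given above in these ratios was not tested. The median of the 26 was 0.27, which compares with 0.17 for all genes. In Mll3-labelled HSC/MPP-like cells 0 of 26 were past the threshold in either direction, against 8.19% of all genes.

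Over all control cells, the antisense genes Dnmt3aos and Dnmt3bos were at 0.0911 and 0.0456 CPM, and the paralogues Dnmt3c and Dnmt3l at 0.124 and 0.358 CPM. The levels of the antisense genes at Tet2 and Tet3 were not measured here. Whether the authors' counting used strand is not given in the sources used here, so reads of Dnmt3a, Dnmt3b, Tet2 and Tet3 could not be told from those of the antisense genes that overlap them.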

How the data were processed

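Per the labels' protocols, cells were prepared with the 10x Genomics 3′ kit, version 3.1, and per the submitters' processing notes Cell Ranger 6.1.2 and the mm10 build were used. The deposited files hold raw UMI counts per gene and cell, with no normalization, for 32285 genes and 15 antibodies. Whether introns or strand were used in counting is not given in the sources used here.

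Cells with at least 500 genes, 1000 UMIs and at most 10% mitochondrial UMIs were kept. Doublets were scored with Scrublet in scanpy 1.11.5, and the highest-scoring 0.8% per 1000 barcodes were removed per library (5.29% to 8.01% of cells). Cells were clustered on 2000 variable genes, 30 components and 15 neighbours (Leiden resolution 1, 26 clusters), leaving out the members, the 29 pathway genes, mitochondrial and Y genes and Xist. Clusters were named by the highest mean standardised level of 108 marker genes, and stayed unnamed where the leading genes held more markers of another class or depth was low. Counts were summed per class and library; the 95% intervals are exact Poisson for levels and exact conditional binomial for ratios, and cover counting error only. Counts under 3 were set to 3 in a ratio. No p-value is given, since each group is 1 library. The ratio step was tested on simulated data. Gene positions and promoters came from GENCODE M21 and RefSeq on GRCm38; 32158 of 32285 gene identifiers matched GENCODE M21.

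Named genes were the 6 members in every comparison, pathway genes past 1.5-fold for the Mll3/4-labelled library over the control and for HSC/MPP-like cells, and the 3 genes most like each member among genes with a mean of at least 5 CPM. The members, the lists and the tests were chosen with earlier results of these data known. Alternatives were TMM scaling (edgeR 4.0.16), median-of-ratios scaling (DESeq2 1.42.0), the mean of per-cell shares, cells thinned to 2000 UMIs, pseudocount, count minimum, fold threshold, doublets, mitochondrial limit, clustering, hashtag and cycling.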

Additional observations from a re-analysis of the deposited data

How the results depend on the processing

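No paired analysis was possible because each group is 1 library and the labels give no replicate numbers. For the counts in 8 comparisons of called members, 106 of 126 alternatives stayed within 1.5 times. The share of all genes called under each alternative is not given here. The counts below therefore say which calls moved and cannot be read against a background. Over all cells, the 2 members of the Mll4-labelled library became 1 with a pseudocount of 1 CPM and 0 with a 2-fold threshold or with the first hashtag alone; in the less-cycling cells the 2 were Dnmt3b and Tet2 (0.66), with Tet1 at -0.43. In Mll4-labelled HSC/MPP-like cells, the count of 0 became 1 with TMM scaling, median-of-ratios scaling, a lower fold threshold and Leiden resolution 2 (Tet1 each time) and 1 with thinning to 2000 UMIs (Dnmt3a, 0.59). In Mll4-labelled B-cell progenitor-like cells, the count of 2 became 0 with either scaling or a 2-fold threshold, 1 with the mean of per-cell shares, a minimum of 100 counts, no doublet removal or the first hashtag alone, and 4 with a lower fold threshold; Tet2 reversed to -0.38 with the mean of per-cell shares. In Mll3/4-labelled B-cell progenitor-like cells, the count of 3 became 1 with the mean of per-cell shares or a 2-fold threshold (Dnmt3a both times), and 5 with a lower fold threshold. In the less-cycling cells it became 1, which was Dnmt1 (0.69), since Dnmt3a (0.30), Tet1 (0.12) and Dnmt3b (-0.41) were all inside the threshold. Dnmt3b was also inside it with the first hashtag alone (-0.49) and the mean of per-cell shares (-0.54), Dnmt3a was 0.50 with thinning, and Dnmt3b reached -1.54 with thinning and -1.20 without doublet removal. The cycling-bin, cluster and surface splits and the alternatives for other classes were chosen after seeing the data. Alternatives that left under 50 cells in a library, such as the less-cycling Mll4-labelled B-cell progenitor-like cells, were not given. Except where an alternative is itself a choice of cells or threshold, the cause was not tested. Depth limits Dnmt3b and Tet1 most, since many classes hold under 50 UMIs of them.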
